A study of Mus musculus with 22 samples.

Results

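Transcripts of 8 genes known from bone and bone-forming cells were followed here through a whole-brain expression map of the newborn mouse. The genes were Ibsp, Bglap2, Dmp1, Phex, Alpl, Sp7, Mepe and Runx2, which are 8 of the 20129 gene symbols that could be named on the array. They had been chosen by their levels in these same fractions, which were known when the list was made, so the levels are given as a description of which slabs held these transcripts. In Transcriptome Tomography a brain is cut into thin slices along 1 axis, neighbouring slices are joined to a slab or fraction, and a microarray reads the RNA of each. Total RNA of the brain was measured in 22 fractions, 10 of a coronal series, 6 of a horizontal series and 6 of a sagittal series. All animals were male C57BL/6J mice without any treatment, and each series came from 1 mouse. By the sample titles the mice were 7 days old, but an age of 3 days is entered among the characteristics. Each fraction was read on 1 array, so no value has a replicate and no difference between animals can be separated from a difference between series.

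The labels describe a slab as 100 slices of 5 µm, or 500 µm, whereas a greater thickness is stated in the study's own description, so slab numbers are used here in place of lengths. Coronal fraction 10 pooled slabs 10 and 11, sagittal fraction 1 pooled slabs 1 and 2, and sagittal fraction 6 pooled slabs 7 to 9, while sagittal fraction 2 was slab 3 alone. Which side of the head sagittal fraction 1 came from is not given. Of 5 hypothalamic genes, Avp and Hcrt were highest in sagittal fraction 3, Oxt and Agrp in fraction 4 and Pomc in fraction 6.

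Osteoblasts build bone by laying down a collagen matrix and then hardening it with calcium phosphate. Runx2 and Sp7 (osterix) are the transcription factors that commit cells to this lineage. Alpl, an alkaline phosphatase, frees phosphate for mineral, while Ibsp (bone sialoprotein), Mepe and Dmp1 are secreted acidic phosphoproteins of the mineralizing matrix and Bglap2 encodes osteocalcin. Phex is a membrane peptidase of osteoblasts and osteocytes that acts in phosphate balance. Osteoclasts, which come from the blood lineage, dissolve the same matrix with acid and with proteases such as cathepsin K (Ctsk). In skull and jaw these cells lie close together. Several of the 8 genes also have roles outside bone: Alpl, for example, is made by cells of brain blood vessels.

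Of the 8 genes, 3 are neighbours. In the RefSeq annotation Dmp1, Ibsp and Mepe follow each other on chromosome 5, flanked by Dspp and Spp1, which encode other phosphoproteins of tooth and bone. The others lie on chromosomes 3 (Bglap2, between Bglap3 and Bglap), X (Phex), 4 (Alpl), 15 (Sp7) and 17 (Runx2). The promoters of the 3 neighbouring genes are printed because their transcripts were high in the same fractions, as described below. Each is the 250 bases before the gene start in RefSeq on GRCm38.p6, plus strand, at chr5:104299037-104299286 for Ibsp, chr5:104202367-104202616 for a start of Dmp1 and chr5:104325079-104325328 for Mepe. Capitals mark the RUNX core AACCACA or its reverse complement TGTGGTT, and the CCAAT box or its reverse complement ATTGG.
Ibsp: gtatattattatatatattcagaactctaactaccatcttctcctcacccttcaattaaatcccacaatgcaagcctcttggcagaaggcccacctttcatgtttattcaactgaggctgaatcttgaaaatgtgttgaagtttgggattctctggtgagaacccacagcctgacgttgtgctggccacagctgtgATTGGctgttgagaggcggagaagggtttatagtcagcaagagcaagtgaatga
Dmp1: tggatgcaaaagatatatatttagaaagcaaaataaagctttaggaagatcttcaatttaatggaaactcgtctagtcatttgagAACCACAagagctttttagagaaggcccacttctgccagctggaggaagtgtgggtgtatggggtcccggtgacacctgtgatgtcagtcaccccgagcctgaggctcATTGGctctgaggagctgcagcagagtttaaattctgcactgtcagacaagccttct
Mepe: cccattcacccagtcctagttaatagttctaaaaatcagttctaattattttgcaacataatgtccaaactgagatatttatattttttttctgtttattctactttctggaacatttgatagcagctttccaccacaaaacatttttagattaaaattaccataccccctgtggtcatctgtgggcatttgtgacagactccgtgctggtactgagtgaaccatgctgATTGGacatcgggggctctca
The printed Dmp1 sequence held AACCACA at position -165 from the gene start, which the window of the other Dmp1 start lacked, and ATTGG at -57, the Ibsp sequence held ATTGG at -54 and the Mepe sequence held ATTGG at -21. Promoters were at hand for 6 of the 8 genes, and AACCACA or TGTGGTT was found in 2 of them, Dmp1 and Runx2. Of 27025 genes with a promoter, 5.08% held it, and of the 26 genes with a promoter in a list of osteoblast and bone matrix genes, 3 did. CCAAT or ATTGG, searched after the sequences had been read, stood in 3 of the 6, and in 37.5% of all genes with a promoter. A match is a run of letters and not a measured binding site.

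A level below is a probe's processed intensity on a log2 scale, taken relative to the 75th percentile of its array, which is set to 0. Levels of different genes come from different probes and are not set against each other. Feature Extraction marked each probe on each array as well above background or not, and a value without that mark is a bound. The share of the 55600 probes with the mark ran from 53.2% to 75.5% over the arrays, and was 65.4% in sagittal fraction 2 and 56.6% in sagittal fraction 6. All 6 sagittal arrays lay on 1 slide, together with coronal fractions 9 and 10. The spike-in slope was 0.977 in sagittal fraction 2 and 0.991 in sagittal fraction 6. It was lower in sagittal fractions 1 and 3, at 0.773 and 0.823, and was 1.02 and 1.00 in sagittal fractions 4 and 5. A lower number of cells of a type and less RNA per cell cannot be told apart in slabs of bulk tissue.

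Ibsp, the gene of bone sialoprotein, had a wide swing along the sagittal series. Its sagittal levels were -4.36, 1.61, -2.59, -3.65, -3.91 and 1.68 in fractions 1 to 6, all of them well above background. Fractions 2 and 6 stood high, and the 4 others lay far below them. The next sagittal level, in fraction 3, was exceeded 18.4-fold by fraction 2 and 19.3-fold by fraction 6. The error that Feature Extraction gives for this probe was 0.144 log2 units on both arrays, which covers the spot and not the variation between slabs or animals. In the coronal series Ibsp ranged from -6.72 to -2.27 with a median of -4.63, and was well above background in 5 of 10 fractions, with its highest levels in fractions 10 and 5. In the horizontal series it ranged from -5.33 to -3.14 with a median of -4.31, and this probe was well above background in fractions 4, 5 and 6. The highest of these 16 values, in coronal fraction 10, was 14.7-fold below sagittal fraction 2.

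The array carried another probe for Ibsp, well above background on 10 arrays. In the sagittal series it read -4.14, 0.08, -3.34, -5.77, -5.46 and -1.27 in fractions 1 to 6. The order of the top fractions was turned, with fraction 2 above fraction 6, and both again stood above the 4 others. Outside the sagittal series it differed from the first probe: its coronal maximum was in fraction 2, at -3.39, and its horizontal maximum in fraction 2, at -3.25, while coronal fraction 10 and horizontal fraction 6 were without the mark. The arrays of coronal and horizontal fraction 2 had the largest shares of all probes well above background, 72.2% and 75.5%. Over the 22 arrays the 2 probes had r = 0.73, and without sagittal fractions 2 and 6 r = 0.26.

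Bglap2, a gene of osteocalcin, an abundant non-collagen protein of bone, was well above background in all 22 fractions. Along the sagittal series it was at -1.76, 0.92, -1.73, -1.92, -1.73 and 3.05. Fraction 6 was the highest and fraction 2 came next, 27.5-fold and 6.25-fold above the highest of the others. The coronal series ranged from -3.61 to -0.03 with a median of -2.19, highest in fraction 5, and the horizontal series from -2.69 to -0.38 with a median of -1.61, highest in fraction 6. Bglap3 is a close copy of the gene beside it. The probe of Bglap3 had r = 0.98 with that of Bglap2 over the 22 arrays and r = 0.96 without sagittal fractions 2 and 6, so the values of the 2 genes may share signal and are uncertain as to the gene.

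Mepe, a phosphoprotein made by osteocytes, was also well above background in all 22 fractions. Its sagittal levels were -2.70, 0.33, -2.72, -2.54, -2.85 and -1.29. Fraction 2 stood 7.36-fold and fraction 6 2.39-fold above the highest of the 4 others. Elsewhere Mepe was nearly level: the coronal values lay between -3.39 and -2.28 (median -2.96) and the horizontal ones between -3.52 and -2.68 (median -2.96). Both sagittal fractions lay above each of those 16 values.

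Dmp1, a matrix protein of osteocytes and tooth, was the sparsest of the group that followed this course. It was well above background in sagittal fractions 2 and 6, at -1.77 and -2.03, and in none of the other 4 sagittal fractions, which were measured at -5.58, -5.15, -6.67 and -6.67. This pattern of detection was met by 1 of the 8 genes and by 0.298% of the tested probes. Against the highest bound among those 4, fraction 2 was at least 10.5-fold and fraction 6 at least 8.71-fold higher. The remaining detections were coronal fraction 2, at -4.36, and horizontal fraction 2, at -3.94. Those arrays had the largest shares of all probes well above background, 72.2% and 75.5%. The part of array background in them was not tested.

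Phex, the phosphate-regulating peptidase, was well above background on 8 arrays. Sagittal levels of Phex were -5.92, -2.31, -5.06, -4.27, -4.76 and -2.65, of which fractions 2, 4 and 6 were well above background. Fraction 2 exceeded fraction 4, the next in order, 3.89-fold and fraction 6 exceeded it 3.07-fold. In the coronal series Phex was well above background in fractions 2, 3 and 7 and reached -4.14. In the horizontal series it was so in fractions 4 and 6 and reached -4.33.

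**Figure D1:**
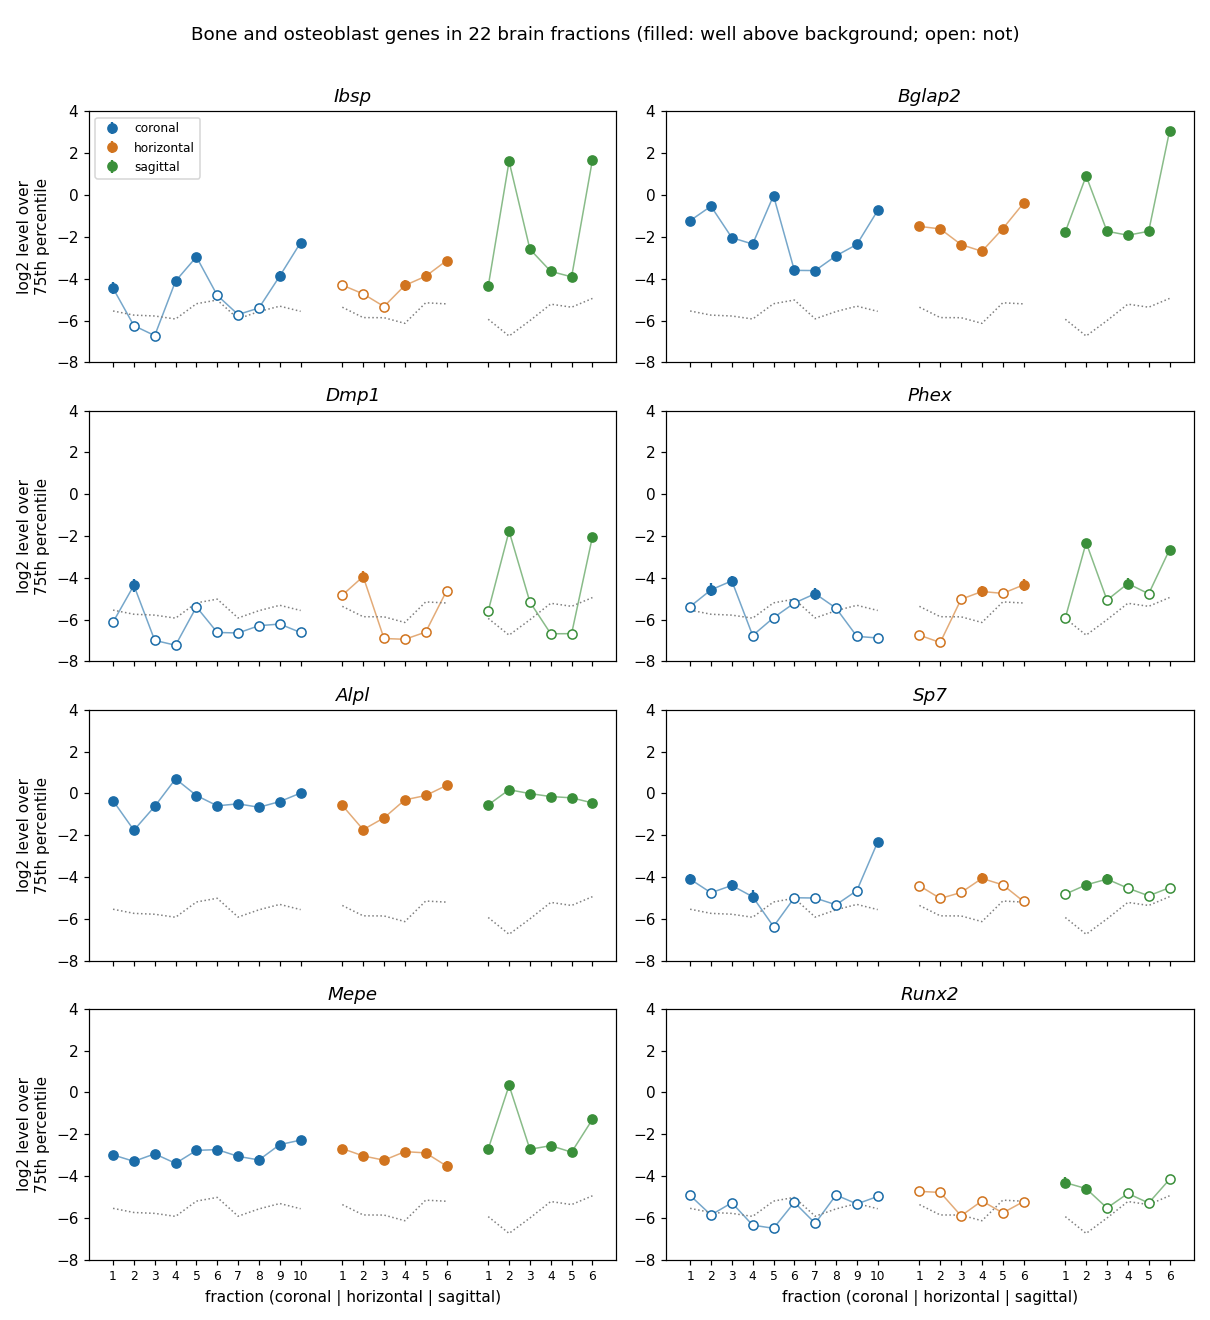
Levels of the 8 bone and osteoblast genes in every fraction. The y axis is the log2 level relative to the 75th percentile of the array, and the x axis gives the fraction number in the coronal (blue), horizontal (orange) and sagittal (green) series; filled points were well above background and carry the Feature Extraction error, open points were not, and the dotted line is the lowest signal that was well above background on that array. Sagittal fractions 2 and 6 stand above the other sagittal fractions for Ibsp, Bglap2, Dmp1, Phex and Mepe, while Alpl, Sp7 and Runx2 show no such pair of peaks.

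The remaining 3 genes did not take this course. Alpl, the alkaline phosphatase, was well above background in all 22 fractions, with an SD over the arrays of 0.59. Its sagittal levels were -0.55, 0.17, -0.01, -0.15, -0.21 and -0.46. Fraction 2 was highest, but only 1.14-fold above fraction 3, and fraction 6 was next to lowest. Its coronal levels ran from -1.76 to 0.69 (median -0.45) with the top in fraction 4, and its horizontal levels from -1.74 to 0.38 (median -0.44) with the top in fraction 6. Both minima were in fraction 2, on arrays with spike-in slopes of 0.815 and 0.818. Over the 22 arrays Alpl had r = -0.58 with the signal of the spike-in a107.

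Sp7, the osteoblast transcription factor also called osterix, was well above background on 7 arrays. In sagittal order it was at -4.82, -4.38, -4.10, -4.53, -4.90 and -4.51, of which fractions 2 and 3 were well above background. These values lay within 1 log2 unit and fraction 2 did not stand out. The highest level of Sp7 was in coronal fraction 10, at -2.32, which was 3.44-fold above coronal fraction 1, the next in order at -4.10. Genes of the olfactory bulb were high in that same fraction: Eomes, Tbx21, Dlx2 and Dcx each had their coronal maximum there. Of the 5 genes with sagittal fractions 2 and 6 on top, Ibsp and Mepe had their coronal maximum in fraction 10 as well, and Dmp1 and Phex, at -6.61 and -6.88, were not well above background there.

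Runx2, the factor that starts the lineage, gave no clear course. The probe with the higher median was near background on all arrays and well above background in sagittal fractions 1 and 2, at -4.31 and -4.60, and the highest value, -4.16 in sagittal fraction 6, was not. The other Runx2 probe was well above background in coronal fraction 2 (-3.99) and horizontal fractions 2 (-4.14) and 3 (-1.60), and in no sagittal fraction. The spike-in slopes of those arrays were 0.815, 0.818 and 0.891, and the part of the array in these detections was not tested. The 2 probes had r = 0.04 over the 22 arrays, so they did not describe the same course, and no slab could be named for Runx2.

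Counting detections per slab also put sagittal fraction 2 first. All 8 genes were well above background in sagittal fraction 2, and 6 were so in sagittal fraction 6 and in horizontal fraction 4. The other fractions had 3 to 5. With any probe of a gene counted, sagittal fraction 2 stayed at 8 and sagittal fraction 6 at 6. Coronal fraction 2 then rose from 5 to 7 and horizontal fraction 2 from 4 to 6. Sagittal fraction 2 was the 1 fraction in which the probes read for Dmp1, Phex, Sp7 and Runx2 were all detected. The other Runx2 probe was not well above background there. Over all probes, more were well above background in 6 other fractions (coronal 1 and 2, horizontal 1 to 3, sagittal 1) than in this fraction. The lowest signal with the mark was -6.74 in sagittal fraction 2, the lowest of the 22 arrays. In sagittal fraction 6 it was -4.94, the highest. Sp7 had the mark in sagittal fraction 2 at -4.38 but not in horizontal fraction 5 at -4.37. Runx2 had it in sagittal fraction 2 at -4.60 but not in sagittal fraction 6 at -4.16. The part of this limit in the counts was not tested.

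**Figure D2:**
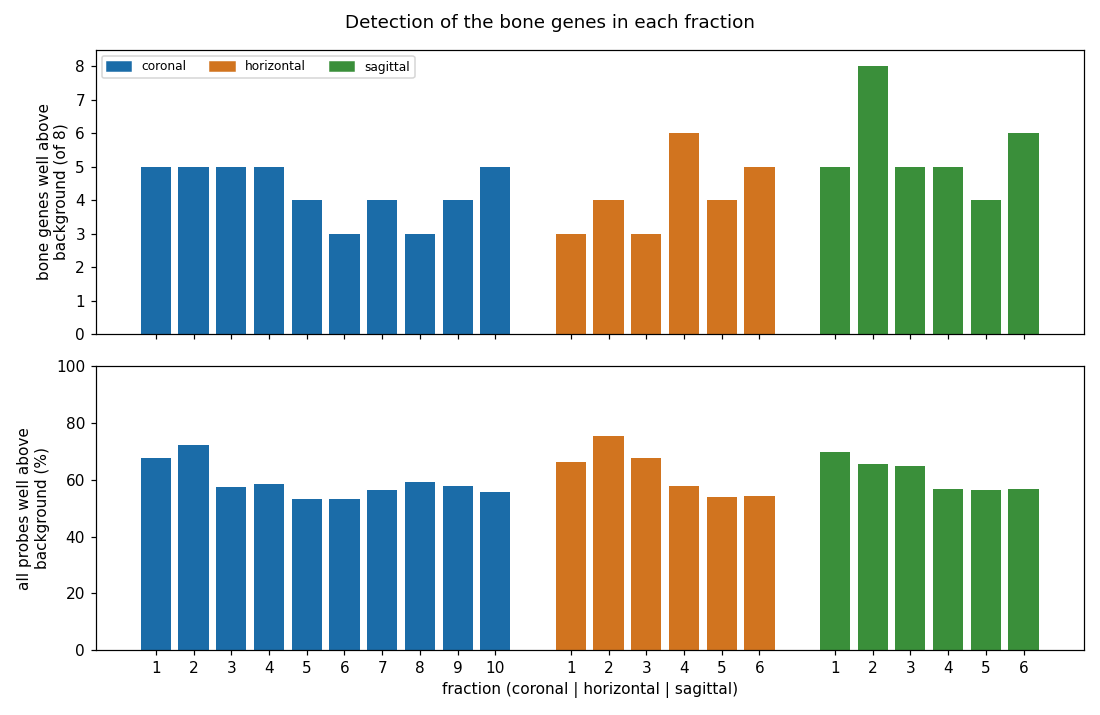
Number of the 8 bone genes well above background in each fraction (top) and share of all 55600 probes well above background in percent (bottom), by fraction number in the coronal, horizontal and sagittal series. Sagittal fraction 2 has 8 of 8 genes at 65.4% of probes, while horizontal fraction 2, with 75.5% of probes, has 4 (6 with any probe of a gene counted).

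Sagittal fractions 2 and 6 are not adjacent, so this is not a gradient. They were the 2 highest fractions of the sagittal series, both well above background, for 5 of the 8 genes, and 4.77% of the 39621 tested probes had the same order. The other pair that held any of the genes was fractions 2 and 3, for Alpl and Sp7. For the same 5 genes both fractions exceeded each other sagittal fraction at least 2-fold, which held for 0.119% of the tested probes (47). At least 4-fold was reached by Ibsp, Bglap2 and Dmp1, and by 0.0404% of probes. Since the genes had been listed with these levels known, these shares describe how rare the course is on the array and are no test of the genes. Over all probes the commonest top pair was fractions 1 and 3, at 19.7%, whose arrays had the lower spike-in slopes. The part of these arrays in the shares was not tested. The count of 5 was the same with each array centred on its median, with quantile normalization, without scaling and with normexp background correction. It was also the same with the next probe of each gene and in the deposited table. Among these 5 genes only Ibsp had another probe, so the others were read from the same probe again. Of the deposited values 99.9% lay within 0.02 of those used here, so that table could hardly change the count. These alternatives were chosen after seeing the data.

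**Figure D3:**
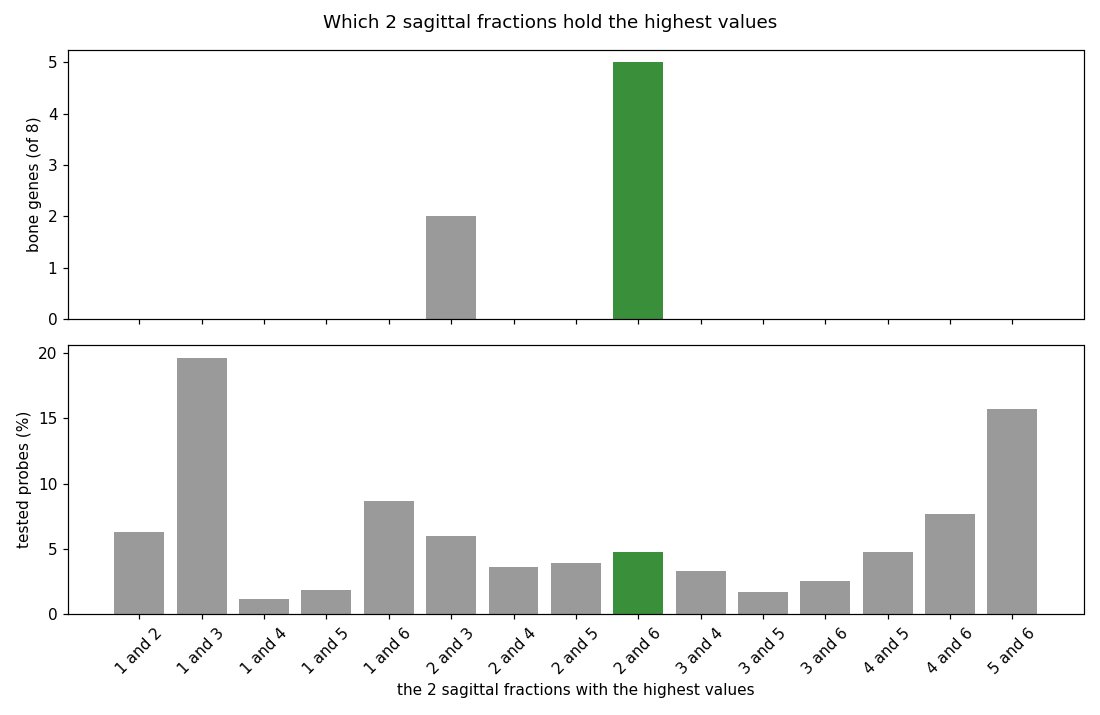
Number of bone genes (top, of 8) and share of the 39621 tested probes in percent (bottom) for each pair of sagittal fractions that can hold the 2 highest values, with both well above background. Fractions 2 and 6 (green) hold 5 genes and 4.77% of probes, and fractions 2 and 3 hold the other 2 genes counted.

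In the other series the top fractions differed between genes. Coronal fraction 10 held the maximum of Ibsp, Sp7 and Mepe, 3 of the 8 genes, against 11.7% of tested probes. Coronal fractions 9 and 10 lay on the slide of the sagittal arrays, and the other coronal fractions on other slides. A difference between slides cannot be told apart from position there. Coronal maxima of the rest were in fraction 2 for Dmp1, 3 for Phex, 4 for Alpl and 5 for Bglap2. Horizontal fraction 6 held the maximum of Ibsp, Bglap2, Phex and Alpl, 4 of the 8, against 14.8% of probes. Sagittal fraction 2 held the maximum of Dmp1, Phex, Alpl and Mepe, 4 of the 8, against 11.4% of probes, and fraction 6 that of Ibsp and Bglap2, 2 of the 8, against 32.9% of probes. For Ibsp, coronal fraction 10 exceeded the next fraction 1.61-fold and horizontal fraction 6 exceeded it 1.68-fold. Meningeal fibroblast markers were high in these fractions too. All 12 on the array had their horizontal maximum in fraction 6, where their summed linear level was 181, against 30.1 to 94.6 in the other horizontal fractions. In coronal fraction 10 the sum was 90.6, against 26.8 to 103 in the other coronal fractions, with the top in fraction 4, and 3 of the 12 had their coronal maximum in fraction 10. The olfactory epithelium sum in coronal fraction 10 was 35.1, above the 10.3 to 20.4 of the other coronal fractions. The skeletal muscle sum there was 5.31, above the 2.54 to 4.41 of the others. In horizontal fraction 6 the cartilage sum was 10.7, above the 7.23 to 10.4 of the other horizontal fractions. The sums for bone marrow, epidermis, inner ear, neurons and astrocytes with oligodendrocytes were not highest in either fraction. The part of these tissues in the bone gene levels was not tested. Without scaling of the arrays, coronal fraction 10 held 1 maximum in place of 3 and horizontal fraction 6 held 2 in place of 4.

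Some genes of resorption were high in the same 2 sagittal fractions. Of 15 osteoclast genes on the array, 7 (46.7%) had fractions 2 and 6 as the 2 highest of the sagittal series, against 4.77% of tested probes. They were Acp5, Ctsk, Mmp9, Dcstamp, Atp6v0d2, Tnfrsf11a and Ostm1. Acp5, the tartrate-resistant acid phosphatase used to stain osteoclasts, was at 3.18 in fraction 2 and 3.92 in fraction 6, against -0.43 to 0.04 in the 4 others. That is 8.81-fold and 14.8-fold above the next sagittal level. Cathepsin K (Ctsk), the main collagen-degrading enzyme of osteoclasts, exceeded the next sagittal level 2.46-fold and 4.46-fold, but horizontal fractions 1 and 6, at 2.25 and 2.35, were above sagittal fraction 2, at 2.17. Atp6v0d2, a subunit of the osteoclast proton pump, was well above background in fractions 2 and 6 and in none of the 4 others, at least 3.40-fold and 6.88-fold above their bound. The median of the 15 genes, each taken relative to its own median over the arrays, was 0.38 in fraction 2 and 0.12 in fraction 6, against -0.19 to -0.05 in the rest, so many of the list moved little. Ostm1 in particular was nearly flat, and Calcr was at -2.85 in fraction 2 and not well above background in fraction 6.

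**Figure D4:**
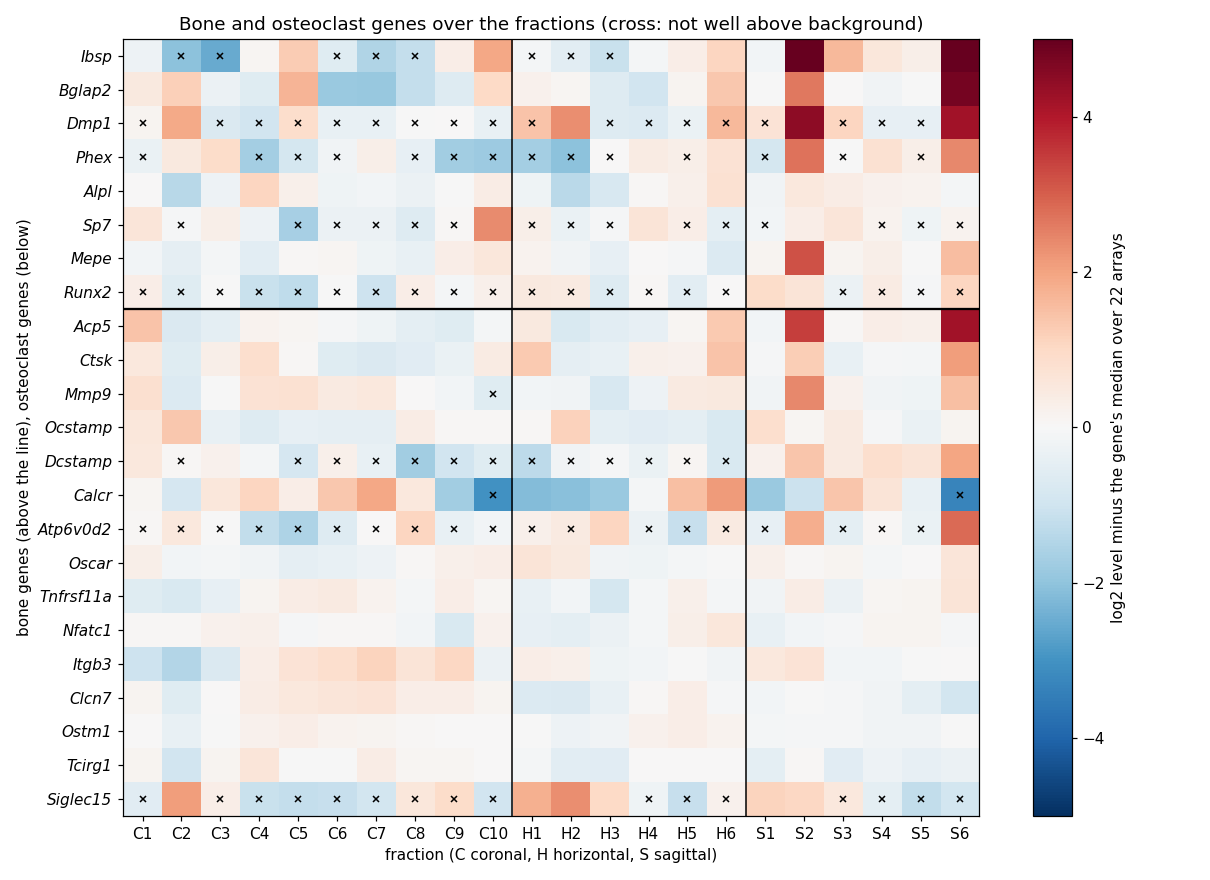
Each gene's log2 level minus its median over the 22 arrays, for the 8 bone genes (above the line) and 15 osteoclast genes (below), by fraction of the coronal (C), horizontal (H) and sagittal (S) series. Red is above and blue below the gene's median, the scale ends at 5 log2 units in both directions, and a cross marks a value not well above background; S2 and S6 are red for Ibsp, Bglap2, Dmp1, Phex and Mepe and for Acp5, Ctsk, Mmp9 and Atp6v0d2.

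Of 40 other osteoblast and bone matrix genes on the array, 9 (22.5%) had sagittal fractions 2 and 6 on top, against the same 4.77%. They included the collagen I genes Col1a1 and Col1a2, Spp1 (osteopontin), Bglap3 and Mmp13, the collagenase of growing bone. Mmp13 was at -1.29 and -2.68 and not well above background in the 4 others, so it was at least 15.2-fold and 5.81-fold higher. Col1a1 was at 4.17 and 4.30, 2.65-fold and 2.91-fold above the next sagittal level. Col1a1 in horizontal fraction 6 was about as high, with sagittal fraction 2 at 0.949-fold of it. The median of the list relative to each gene's own median was 0.21 in fraction 2 and 0.37 in fraction 6, against -0.20 to 0.02 in the 4 others. The summed linear level of the 40 genes did not follow this course, at 465 in fraction 2 and 455 in fraction 6, against 425 to 504 in the 4 others and up to 799 on the other arrays. Some bone genes had the mark in fraction 2 and not in fraction 6, whose lowest signal with the mark was higher. Panx3, a channel protein of osteoblasts and cartilage, was at -4.18 in fraction 2 and was not well above background in any other sagittal fraction. Vdr, the vitamin D receptor, was at -2.94 in fraction 2 and -4.40 in fraction 1 and below detection in the rest. Sost, which marks mature osteocytes, and Tnfsf11 (RANKL) were not well above background in any of the 22 fractions by the probes read.

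Some markers of other tissues had the same order. Fractions 2 and 6 were the 2 highest for 3 of 18 cartilage genes (16.7%) and 3 of 14 genes of bone marrow myeloid and B lymphoid cells (21.4%), both shares above the 4.77% of tested probes. They were the 2 highest for 1 of 13 skeletal muscle genes (7.69%) and 0 of 12 meningeal fibroblast genes. The same count was 0 of 7 in epidermis, 0 of 10 each in olfactory epithelium, inner ear and neurons and 0 of 8 in astrocytes and oligodendrocytes. None of the genes in these lists was 2-fold above the other sagittal fractions in both. The summed linear level of the marrow list was 4.23 in fraction 2 and 17.5 in fraction 6, against 2.20 to 3.99 in the 4 others, and it was carried in fraction 6 by the neutrophil genes S100a8 and S100a9, at 1.90 and 3.09. In fraction 2 the same 2 genes were at -2.26 and -0.58, within the range of fractions 1, 3, 4 and 5. The meningeal sum was 41.7 in fraction 2, between the 29.6 and 46.9 of the 4 others, and 67.6 in fraction 6. The cartilage sum was 11.1 in fraction 2 and 8.87 in fraction 6, against 7.90 to 9.85. The skeletal muscle sum was 3.23 in fraction 2 and 6.03 in fraction 6, against 2.95 to 4.27 in the 4 others. The olfactory epithelium sum was 15.7 in fraction 2 and 154 in fraction 6, against 11.7 to 25.7. It was carried in fraction 6 by Gng13, at 7.26, while Omp, at -1.78, and Cnga2, at -2.68, were not raised there. The sums of the marrow, meningeal, skeletal muscle and olfactory epithelium lists were thus higher in fraction 6 than in fraction 2, and their part in the bone gene levels was not tested. Summed levels of the 8 bone genes themselves were 7.92 in fraction 2 and 13.2 in fraction 6, against 1.30 to 1.75 in the other sagittal fractions and 0.862 to 2.41 over all other arrays.

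The tests asked whether a gene changed smoothly along an axis. A quadratic curve per series was fitted to all 22 arrays with limma, and p-values were adjusted over 39621 probes by the Benjamini-Hochberg method. Runx2 was not detected in every series and was not tested, which leaves 7 genes. Along the coronal axis 1 of 7 passed, Sp7 (adjusted p = 0.00938 in limma), against 19.8% of all tested probes. Its call rested on coronal fraction 10, without which the adjusted p was 0.12 in limma, and it was also lost with slide as a block (adjusted p = 0.138 in limma), with quantile normalization (0.242), without scaling of the arrays (0.0631), on the coronal series alone and with a linear term alone. Along the horizontal axis 0 of 7 passed in limma, against 6.57% of probes, and 0 of 7 had an unadjusted p under 0.05, against 38.0%. The sagittal linear term gave 0 of 7 in limma, against 10.2% of probes, and the sagittal quadratic term gave 0, against 0.0303%, and in both 0 of 7 had an unadjusted p under 0.05, against 24.0% and 14.8% of probes. For Ibsp the linear change over the whole sagittal series was 2.75 ± 2.20 (SE) log2 units (adjusted p = 0.467 in limma), and for Bglap2 it was 3.02 ± 1.49 (adjusted p = 0.234). A smooth curve cannot follow 2 separate peaks: the residual SD of Ibsp was 1.84 and that of Dmp1 1.49 log2 units, against a median of 0.376 over all tested probes. Each probe had 1 residual SD over all 22 arrays, so the sagittal peaks also widened the error in the coronal and horizontal tests. The counts for those axes therefore do not show that the peaked genes were flat there. The means of the 3 series differed for 0 of 7 genes in limma, against 0.00757% of probes. Ibsp and Mepe, 2 of the 7, had an unadjusted p under 0.05 there, against 10.2% of probes.

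The wider lists were read in the same fit. The test covers the linear and the quadratic term of a series together, so a gene that passed need not have risen or fallen steadily, and only the sign of the linear term is given. Of 32 tested osteoblast and bone matrix genes, 4 passed with a positive and 5 with a negative linear term along the coronal axis, and 2 with a positive and 1 with a negative term along the horizontal axis. In the sagittal linear term 1 was positive and 1 negative. Of all tested probes, 19.8%, 6.57% and 10.2% passed in these 3 tests, so the calls named here are values of single genes and not a property of the osteoblast, osteoclast or cartilage lists. The largest positive coronal term was that of Dlx5, a homeobox factor of bone and of forebrain interneurons, at 5.97 log2 units over the series (adjusted p = 0.0038 in limma). Smpd3 and Bmp2 were among the others with a positive term. Those of Sparc, Dspp, Msx2, Pth1r and Kazald1 were negative. Of 13 tested osteoclast genes, Itgb3 and Oscar passed along the coronal axis with a positive and Calcr with a negative term, Calcr passed along the horizontal axis with a positive and Oscar with a negative term, and 0 passed in the sagittal linear term. Of 17 tested cartilage genes, Col10a1 and Hapln1 passed along the coronal axis with a positive and Col2a1 and Ucma with a negative term, and Sox9 passed along the horizontal axis with a positive term.

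Likeness over the 22 arrays was described by Pearson's r, whose points share a mouse within each series and in part a slide. Among the 10 pairs of Ibsp, Bglap2, Dmp1, Phex and Mepe, r lay between 0.44 and 0.83, the highest being that of Ibsp and Mepe. Without sagittal fractions 2 and 6 the same pairs ran from -0.31 to 0.56 over 20 arrays, so most of their likeness came from these 2 arrays. Dmp1, Phex and Ibsp were well above background on 4, 8 and 14 of the 22 arrays. Many of their other values are bounds, among which a low r says little. Bglap2 and Mepe, well above background on all 22, had r = 0.002 without the 2 fractions. Over the 16 coronal and horizontal arrays the range was -0.48 to 0.58. The other 18 pairs, which involve Alpl, Sp7 or Runx2, ran from -0.13 to 0.49 over the 22 arrays.

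Among 16684 other genes, Acp5 was the most like Ibsp (r = 0.86) and the most like Mepe (r = 0.74). Without sagittal fractions 2 and 6 these values were 0.44 and -0.10. It was also the most like the mean course of the 7 bone genes detected on at least 3 arrays (r = 0.91, and 0.53 without sagittal fractions 2 and 6). Among the next in likeness to that mean course were Bglap3 (0.87), Ptprcap (0.80), Cep55 (0.75), Lmcd1 (0.73), Lrp5 (0.73), Gm10451 (0.72), Prpmp5 (0.72) and Col11a1 (0.72). Lrp5 is a Wnt co-receptor known for its part in bone mass, and Col11a1 is a cartilage collagen chain. After Bglap3, Bglap2 was most like Acp5 (0.79) and Fabp4 (0.75), a fatty acid binding protein of fat cells and macrophages. Dmp1 was most like Bglap3 (0.81), Gm11937 (0.74) and Olfr159 (0.73), and Phex most like Dach1 (0.75), Spn (0.75) and Cep43 (0.75). Dmp1 was well above background on 4 and Phex on 8 of the 22 arrays, so these values rest largely on bounds.

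Alpl was most like Fkbp9 (r = 0.93), Gja1 (0.87), a gap junction gene, and Hic1 (0.86). These values held without sagittal fractions 2 and 6 (0.94, 0.88 and 0.85). Sp7, well above background on 7 arrays, was most like Zfp160 (0.79), Chrna10 (0.77) and Frmd7 (0.75). Runx2, mostly not well above background, was most like Rasgrp4 (0.79), Cyp4a12b (0.79) and 2310079G19Rik (0.79), and these describe a course near background.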

How the data were processed

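Total RNA of 22 fractions of 3 brains was hybridised in 1 colour (Cy3) to Agilent arrays designed on mm9. The authors extracted processed intensity with Feature Extraction 10.10.1.1, as the file headers state, and deposited a table of log2 values, of which 99.9% lay within 0.02 of the scanner-derived values. Control and outlier spots were left out and the spots of a probe were averaged. For 55600 probes the log2 intensity was taken relative to the 75th percentile of its array. A gene was read from its RefSeq probe with the highest median over 22 arrays. The 39621 probes well above background in each series were tested in R 4.3.3 with limma 3.58.1 (9 coefficients, 13 residual degrees of freedom, adjusted p threshold 0.05), and the script was tested on simulated data. The fits pool 3 mice and hold no spread between animals, and precision is limited by the few arrays. A fold against an undetected value used the higher of its own value and the lowest detected signal of that array. The files have no mean signal column, so normexp (offset 50) used median spot signals. Groups were taken from the section plane. Named were the 8 genes, list genes past the threshold or highest in a leading fraction, and the 3 genes most like each (10 for the mean course); genes such as Panx3, Vdr, Sost and Ostm1 were named after their values were seen. Some genes that this rule names are not reported here. The genes, lists and tests were chosen with earlier results of these data known. Python 3.11.15, numpy 2.4.6, pandas 2.3.3 and matplotlib 3.10.9 were used.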

Additional observations from a re-analysis of the deposited data

How the results depend on the processing

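The sagittal pattern of 5 genes with fractions 2 and 6 on top kept its count under all 6 alternatives tried. Of these, the next probe differed only for Ibsp among the 5 genes, and the deposited table nearly repeats the values used. The coronal count of 1 (Sp7) fell to 0 in limma with quantile normalization, without scaling, with slide as a block, on the coronal series alone and with a linear term alone, and ranged from 0 to 1 when an array was left out, being 0 without coronal fraction 10. With only probes detected on all arrays, 3 genes were left and gave 0, and Sp7 was not among them. The adjusted p of Sp7 in limma was 0.242 with quantile normalization, 0.0631 without scaling and 0.138 with slide as a block, and 0.509 with a linear term alone, the largest. Setting sagittal fraction 6 against fractions 1 to 5, a contrast with 1 array on one side, gave 1 (Bglap2) in place of the 0 of the sagittal linear term; its level there was known beforehand, so this count is no support. Without an array, the horizontal, sagittal linear, sagittal quadratic and series counts ranged from 0 to 0 in limma. Without scaling, coronal fraction 10 held 1 maximum in place of 3 and horizontal fraction 6 held 2 in place of 4; the cause was not tested. Fraction numbers mark places along different axes and do not pair samples. With fraction number as a replicate block, the count for the difference between series was 0. Values near background, as for Runx2 and most of Dmp1, Phex and Sp7, are limited by signal over background.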

Other observations

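The 47 probes at least 2-fold higher in sagittal fractions 2 and 6 than in each other sagittal fraction were looked up after the bone genes had been described, and the genes below were named after their values were seen. They covered 21 named genes and 23 probes without a name. Beside the bone and osteoclast genes above, the list held Fam170b (0.79 and 0.42 in fractions 2 and 6, -3.86 to -3.23 in the others), Gm11559 (2.73 and 3.88, against -1.12 to -0.19) and Plxna1 (1.92 and 2.05, against -0.51 to 0.15), a semaphorin receptor. Dkk1, a secreted Wnt inhibitor made by osteoblasts among other cells, was at -2.90 and -3.19 and was not well above background in the other 4. Acp5, Ibsp and Bglap3 were each in the list with 2 probes. The probe of Fabp4 was at -2.92 and -1.75, against -4.94 to -4.02.

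The neutrophil gene S100a8 had its highest level outside sagittal fraction 6 in horizontal fraction 1, at 0.51, a fraction in which Dmp1 was not well above background and Ibsp was so by 1 of its 2 probes, at -3.85.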
